A study of Mus musculus with 33 samples.

Results

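Chemokines are small secreted proteins that draw leukocytes and other cells along gradients, and they act through receptors of the G protein coupled kind. Genes whose symbol was Ccl, Cxcl, Cx3cl, Ccr, Cxcr or Cx3cr followed by a number were followed through the hair cycle of mouse dorsal skin. This rule took 47 genes of the 18193 that had a probe set with a single symbol, 32 ligands and 15 receptors, carried by 75 probe sets. Each gene was represented by its probe set with the highest mean log2 signal over the 33 arrays. For 27 genes, 22 ligands and 5 receptors, that probe set exceeded the median signal of the array on 3 or more arrays, and these are the genes tested below.

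The study followed the second, synchronized hair cycle of C57BL/6 mice and a cycle started by depilation, in which a wax and rosin mixture pulls the resting hairs and the follicles grow anew. Total RNA of upper-mid dorsal skin was hybridized with 1 mouse for each array, and no transgene or other allele was named, only WT. The natural cycle had 4 arrays of early anagen (P23 and P25, 1 female), 3 of mid anagen (P27, 1 female), 3 of late anagen (P29, 2 female), 6 of early catagen (P37 and P39, 3 female), 3 of mid catagen (P41, 1 female) and 3 of telogen (P44, 1 female). Anagen is the growth phase of the follicle, catagen its regression and telogen its rest. A single P34 array (late anagen) entered only the fit of all arrays, as its own time point. Depilated skin had 2 arrays at each of 5 time points, all from females of at least P50. D3 was matched to early anagen, D5 to mid anagen, both D8 and D12 to late anagen, and D17 to early catagen. Depilated mice were thus older than the natural-cycle mice, and age and depilation cannot be told apart in any comparison. Comparisons of females alone remove the difference in sex only, and their spread comes from the time points with 2 females (P29, P39 and each D time point). The phases were those of the series description, which assigned them by morphology. The sample labels carry the words early anagen for P41, P44 and all D samples, and their days were used instead.

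Skin holds several sources of chemokines as background. Macrophages and dendritic cells express Ccr1 and Ccr2 and make Ccl6, Ccl8 and Ccl9, while keratinocytes are a known source of Cxcl14 and Ccl27, and fibroblasts of Cxcl12. Ligands of Ccr2 such as Ccl2 draw monocytes into tissue, ligands of Cxcr2 such as Cxcl1 and Cxcl2 draw neutrophils, and ligands of Cxcr3 such as Cxcl9 and Cxcl10 draw activated T cells. In whole skin, fewer cells of a type and less RNA per cell cannot be told apart.

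Array medians lay between 111.2 and 142.5, and replicates of a time point correlated at r = 0.943 to 0.980 over the 26988 probe sets kept. Signals are linear values on the scale of the authors, and any lower than 34.6, the 25th percentile over the whole table, was raised to that floor before the log2 was taken. Where an array was under the floor, a log2 difference only bounds the change. A gene was called at an adjusted p under 0.05 (limma, Benjamini-Hochberg over the 26988 probe sets kept).

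Over the natural cycle, most of the chemokine genes were highest in resting skin and lowest in growing skin. Of the 27 genes, 23 changed over the 6 phases (limma F test, 22 arrays), which is 85.2% against 72.6% of all probe sets tested. The mean signal was highest in telogen for 16 genes and in mid catagen for 7, and it was lowest in mid anagen for 10 and in late anagen for 10. Among all 12867 genes, 31.8% were highest in telogen, 9.96% in mid catagen, and 13.4% and 22.6% were lowest in mid and late anagen. Ccl12, Ccl28, Ccl4 and Cx3cl1 did not pass the F test.

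**Figure D1:**
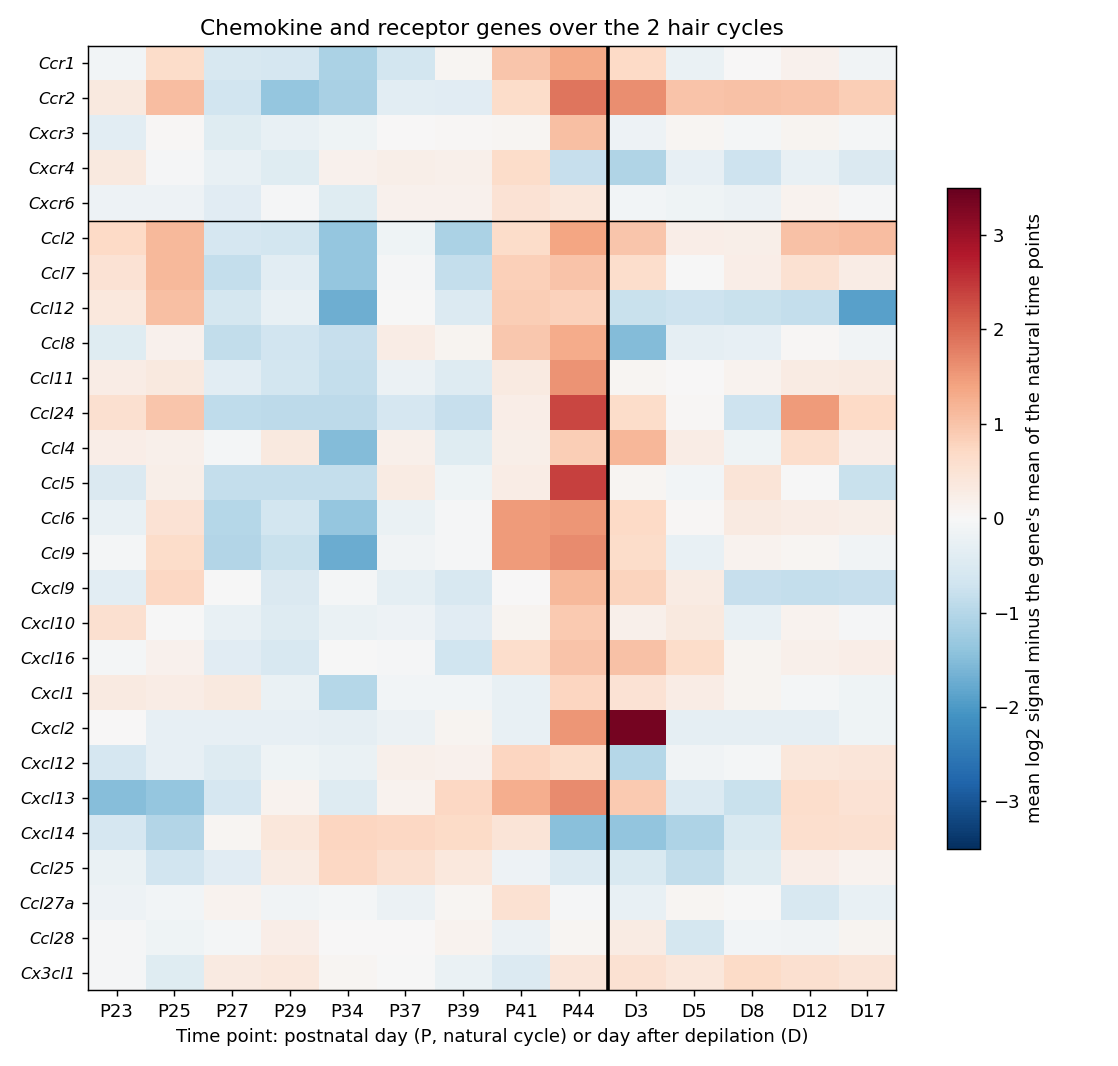
Heat map of the 27 tested genes (rows, receptors above the thin line and ligands below) over the time points of the natural cycle and of depilation (columns, to the right of the thick line). Colour gives the mean log2 floored signal minus the mean of the gene over the natural time points. Most ligand rows turn red at P41 and P44 and blue from P27 to P34, Cxcl14 runs the other way, and Cxcl2 stands out at D3.

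Growing skin was set against resting skin by comparing late anagen with telogen. Of 27 genes, 17 fell and 2 rose (70.4%), against 44.6% of all probe sets, of which 23% were lower and 21.6% higher. The median log2 difference was -1.38 over the 27 genes and 0.01 over all probe sets. The lower genes took in the receptors Ccr1, Ccr2 and Cxcr3, the monocyte attractants Ccl2 and Ccl7, the eotaxins Ccl11 and Ccl24, and the macrophage products Ccl6, Ccl8 and Ccl9. The higher genes were Cxcl14 and Ccl25. Late anagen, early anagen, D3 and mid catagen were all compared with the same 3 telogen arrays, so those comparisons are not independent of each other.

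**Figure D2:**
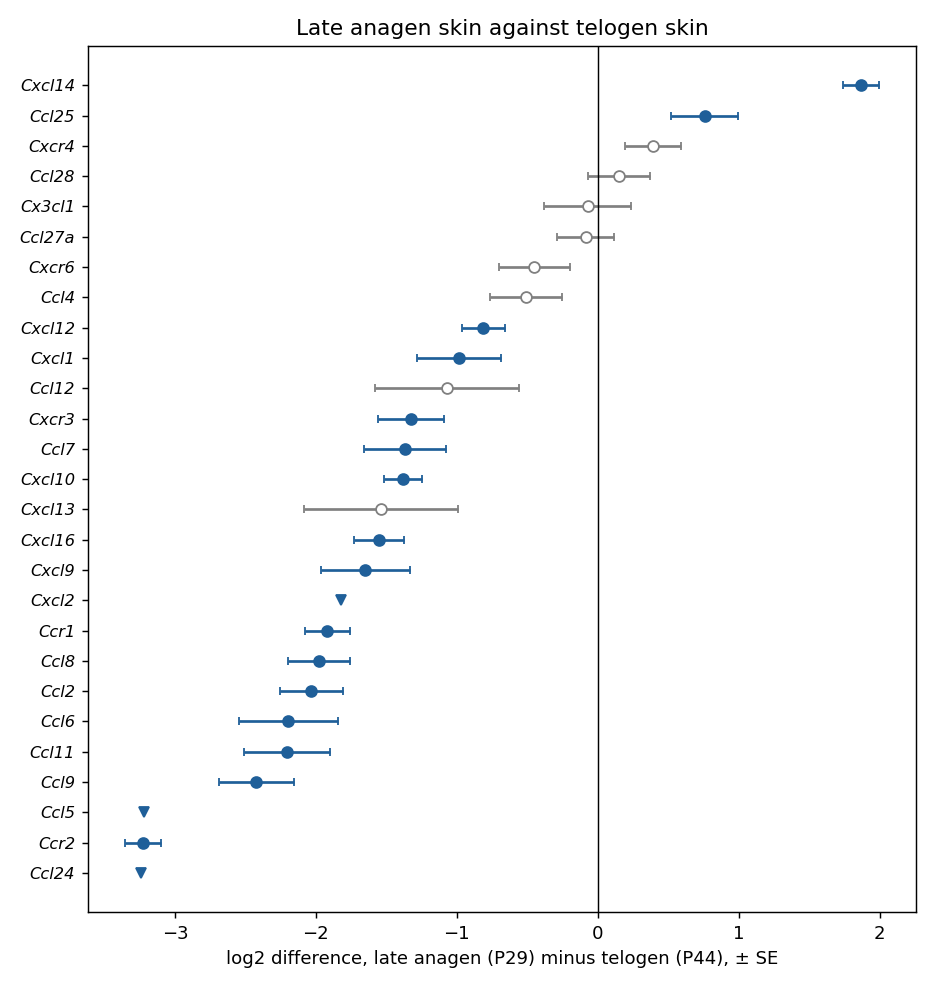
Log2 difference of late anagen (P29, 3 arrays) minus telogen (P44, 3 arrays) for the 27 genes, with bars of 1 SE. Filled symbols passed an adjusted p of 0.05, and triangles mark genes with late anagen arrays under the floor, whose values only bound the change. Ccr2, Ccl24 and Ccl5 lie below -3 and Cxcl14 lies near 1.87.

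Ccr2, the receptor that monocytes use to enter tissue, had the most even separation. Its signals were 122.5, 147.7 and 129.3 in late anagen and 1270.7, 1235.7 and 1215.3 in telogen. The groups were far apart and each was tight, with a log2 difference of -3.22 ± 0.13 (SE, adjusted p = 3.99e-05). A second probe set of Ccr2 fell by 1.55 (adjusted p = 0.00591), which is a smaller fall in the same direction. Among its ligands, Ccl2 gave 68.2, 49.4 and 54.1 in late anagen and 174.4, 258.8 and 276.1 in telogen. That was a difference of -2.03 ± 0.22 (adjusted p = 0.000752), and the groups did not overlap. Ccl7 followed with -1.37 ± 0.29 (adjusted p = 0.00974), while Ccl12 had 76.8, 266.6 and 88.8 in late anagen and 309.8, 324.3 and 167 in telogen, overlapped between the groups and was not called (adjusted p = 0.133).

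Ccl8 is described in mouse as a ligand of Ccr8. Its signal was 3249.8, 3700.3 and 2282.3 in late anagen and 12482.2, 13547.9 and 9887.7 in telogen. The lowest telogen array was well above the highest late anagen array, and the difference was -1.98 ± 0.22 (adjusted p = 0.000828). Ccr8 itself was under the floor on all 33 arrays, with a highest signal of 19.5.

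Ccr1 and its mouse ligands Ccl6 and Ccl9 were lower together in late anagen. Ccr1 had 66.2, 82.8 and 91.7 in late anagen and 279.1, 309.1 and 316.1 in telogen, a difference of -1.92 ± 0.16 (adjusted p = 0.000315). Ccl9 had 684.1, 1325.1 and 1052.8 in late anagen and 6362.1, 5073.4 and 4559.7 in telogen, and Ccl6 fell by 2.20 ± 0.35 (adjusted p = 0.00311). Neither ligand overlapped between the groups, and Ccl9 differed by -2.42 ± 0.27 (adjusted p = 0.000767). Ccl5, a ligand of Ccr1 and Ccr3 that T cells make, was at 8.9, 10.3 and 15.8 in late anagen, all under the floor, and at 358.9, 325.9 and 284.8 in telogen. Its log2 difference was -3.22 at the floor, which bounds a fall at least that large (adjusted p = 4.73e-05, with all late anagen values equal at the floor and the spread set by telogen). Ccl5 exceeded the array median on 5 arrays, the 3 of telogen, P39 replicate 1 and D3 replicate 2. Its entry into the test thus depended on telogen. Its p values against telogen, here and below, are therefore not independent of that choice. Ccl4, a chemokine made by activated macrophages, averaged 130 ± 37.0 in late anagen and 181.5 ± 30.7 in telogen (SD, n = 3 each) and was not called (adjusted p = 0.147).

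The eotaxins Ccl11 and Ccl24 attract eosinophils through Ccr3. Ccl24 had 18.8, 33.8 and 31.7 in late anagen, all under the floor, and 443.3, 286.6 and 274.4 in telogen, a log2 difference of at most -3.24 (adjusted p = 0.000143, again with no spread left in late anagen). Ccl11 had 169, 119.6 and 170.1 in late anagen and 1089.2, 526.2 and 589.7 in telogen (-2.21 ± 0.30, adjusted p = 0.00174). Telogen replicate 1, the female of that group, stood highest for both. Ccr3 was under the floor on 30 of the 33 arrays and reached 51.2 at most.

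Cxcr3, a receptor of activated T cells, was lower with its ligands. It had 95.8, 148.6 and 104.5 in late anagen and 366.4, 257.4 and 248.1 in telogen (-1.33 ± 0.23, adjusted p = 0.00441). Of the ligands, Cxcl10 fell by 1.38 ± 0.13 (adjusted p = 0.000488) and Cxcl9 by 1.65 ± 0.32 (adjusted p = 0.00629). Cxcl16, the membrane-bound ligand of Cxcr6, had 197.8, 218.9 and 223.8 in late anagen and 493.1, 721.1 and 682.2 in telogen (-1.55 ± 0.18, adjusted p = 0.000886). Cxcr6 was not called, with a mean of 89.3 ± 31.8 in late anagen and 117.9 ± 15.2 in telogen (SD, n = 3 each, adjusted p = 0.193).

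Cxcr4 and Cxcl12, a pair that holds stem and immune cells in place, both peaked in mid catagen but compared differently with telogen. Cxcl12 had 2794.2, 3424 and 3820.5 in late anagen and 5927.5, 5662.1 and 5894.5 in telogen (-0.81 ± 0.15, adjusted p = 0.00563), but a second probe set of the gene differed by -0.01 (adjusted p = 0.965). The fall of Cxcl12 thus rested on a single probe set. Cxcr4 averaged 354 ± 67.3 in late anagen and 269.1 ± 44.2 in telogen (SD, n = 3 each) and was not called there (adjusted p = 0.155). It was at its highest mean in mid catagen, with 688.8, 709.3 and 783.9, and fell to 266.9, 314.3 and 226 in telogen, with a difference of telogen minus mid catagen of -1.45 ± 0.16 (adjusted p = 0.00608). In early anagen it was again higher than in telogen, by 0.96 ± 0.18 (adjusted p = 0.00893). Cxcl12 also had its highest mean in mid catagen, 6261. Its difference of telogen minus mid catagen was -0.09 (adjusted p = 0.727), and -0.73 on its second probe set (adjusted p = 0.0781), neither of them called.

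Cxcl1, Cxcl2 and Cxcl3 are ligands of Cxcr2 that attract neutrophils and lie next to each other, with Cxcl15, as neighbouring protein-coding genes of chromosome 5 in the RefSeq annotation (assembly GRCm38.p6). Cxcl2 was low in most natural-cycle skin, with 37.7, 23.2 and 18.4 in late anagen (2 of 3 arrays under the floor) and 56.2, 140.2 and 254.3 in telogen (adjusted p = 0.0249). Cxcl1 differed by -0.98 ± 0.30 (adjusted p = 0.0354), measured by a probe set that may bind several transcripts. Cxcl2 lost its call without any late anagen array or telogen replicate 2 (adjusted p up to 0.0709), and Cxcl1 without late anagen replicate 2 or any telogen array (up to 0.0899). Cxcl2 exceeded the array median only on both D3 arrays and telogen replicate 3. Its p values, here and below, are thus not independent of the choice of genes to test.

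The promoters of these 3 neighbours are shown because Cxcl2 was the gene that stood out after depilation. The RefSeq windows of 300 bases run from 250 bases before to 50 after the gene start, and capitals mark matches to a motif of the NF-kB family (GGG, any 2 bases, then TTTCC) on either strand. The windows are chr5:90890995-90891294 for Cxcl1, chr5:90903649-90903948 for Cxcl2 and chr5:90785851-90786150 for Cxcl3, all on the plus strand of GRCm38.p6.
Cxcl1: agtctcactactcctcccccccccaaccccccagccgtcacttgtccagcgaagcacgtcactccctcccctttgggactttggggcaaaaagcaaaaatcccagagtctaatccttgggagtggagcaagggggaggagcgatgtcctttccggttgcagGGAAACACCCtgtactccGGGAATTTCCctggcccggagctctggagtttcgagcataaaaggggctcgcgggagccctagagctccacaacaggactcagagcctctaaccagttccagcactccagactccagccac
Cxcl2: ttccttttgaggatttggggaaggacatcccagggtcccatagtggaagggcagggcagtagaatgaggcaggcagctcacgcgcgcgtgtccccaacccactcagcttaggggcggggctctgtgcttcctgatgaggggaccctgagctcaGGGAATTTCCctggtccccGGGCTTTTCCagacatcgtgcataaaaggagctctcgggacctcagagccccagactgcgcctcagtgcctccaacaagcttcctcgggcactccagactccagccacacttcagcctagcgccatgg
Cxcl3: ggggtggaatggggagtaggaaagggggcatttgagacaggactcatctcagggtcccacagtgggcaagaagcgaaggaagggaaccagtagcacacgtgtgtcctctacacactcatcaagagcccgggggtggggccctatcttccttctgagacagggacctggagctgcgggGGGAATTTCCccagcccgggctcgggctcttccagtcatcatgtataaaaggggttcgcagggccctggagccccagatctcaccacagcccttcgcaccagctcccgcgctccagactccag
All 3 windows hold GGGAATTTCC, starting 71 bases before the gene start in Cxcl1, 97 in Cxcl2 and 73 in Cxcl3, and Cxcl1 and Cxcl2 each hold 2 matches. Of the 47 genes 34 matched a RefSeq window, and 6 of these held the motif, namely Ccl20, Ccl9, Ccr3, Cxcl1, Cxcl2 and Cxcl3. Over 27025 genes with such a window, 1.62% held it. A pair of other motifs was searched in the same windows on both strands, CACGTG (the E-box bound by CLOCK) and GAGGAAG (an ETS family core), and the letters of none of the motifs contain another. CACGTG was in 1 of the 34 windows (Cxcl3) against 7.24% of all, and GAGGAAG was in 6 against 13.5%. A match to letters is not a bound site. Cxcl1, with as many matches as Cxcl2, was not called at D3 against telogen (-0.27, adjusted p = 0.453, limma). Nor was it called at D3 against early anagen (0.21, adjusted p = 0.502), and its second probe set was called in neither. The part of the motif in any change was not tested.

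Cxcl13, the ligand of Cxcr5 that attracts B cells, climbed along the natural cycle. Its means were 83.4 in early anagen, 146.7 in mid anagen, 243.5 in late anagen, 318.6 in early catagen, 536.6 in mid catagen and 833.2 in telogen. Telogen arrays spread widely, at 1571.3, 348.4 and 579.8, so that late anagen minus telogen was -1.54 ± 0.55 and missed the threshold (adjusted p = 0.0587). Early anagen, with 92.5, 65, 110 and 65.9, did not overlap telogen and differed by -3.07 ± 0.49 (adjusted p = 0.00509). Cxcr5 never exceeded the array median and reached 71.4 at most.

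Cxcl14, an epithelial chemokine made by keratinocytes, was 1 of the 2 genes that were higher in late anagen. Its signal was 4278.1, 4619.7 and 4468.4 in late anagen and 1184.8, 1356.3 and 1133.9 in telogen (1.87 ± 0.13, adjusted p = 0.000186). The gene was already higher in early anagen than in telogen by 0.66 ± 0.19 (adjusted p = 0.0369) and higher in mid than in early anagen by 0.86 ± 0.19 (adjusted p = 0.0226). It peaked in early catagen, with a lowest array of 4873, a median of 5489 and a highest of 5972.3, stayed at 4404.5, 5339.7 and 4212.5 in mid catagen, and in telogen was lower than in mid catagen by a log2 difference of -1.92 ± 0.14 (adjusted p = 0.00202). A second probe set rose by 0.94 in late anagen (adjusted p = 0.00512) and missed the threshold in early anagen against telogen (0.15, adjusted p = 0.546) and in mid against early anagen (0.42, adjusted p = 0.125).

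Ccl25, known best from thymus and gut, had 142.3, 197.8 and 166.6 in late anagen and 76.5, 134.6 and 94.1 in telogen (0.76 ± 0.24, adjusted p = 0.04), and the call was lost without any late anagen array, telogen replicate 1 or telogen replicate 3 (adjusted p up to 0.119). Its second probe set differed by 0.15 (adjusted p = 0.862). Ccl27a, a keratinocyte ligand of Ccr10, differed by -0.09 ± 0.21 between late anagen and telogen (adjusted p = 0.758), and Ccl28 differed by 0.15 ± 0.22 (adjusted p = 0.609). Cx3cl1, a membrane-bound ligand of Cx3cr1, had a log2 difference of -0.07 ± 0.31 (adjusted p = 0.867), whereas its second probe set was higher in late anagen by 0.65 (adjusted p = 0.047), so its probe sets did not give 1 answer.

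**Figure D3:**
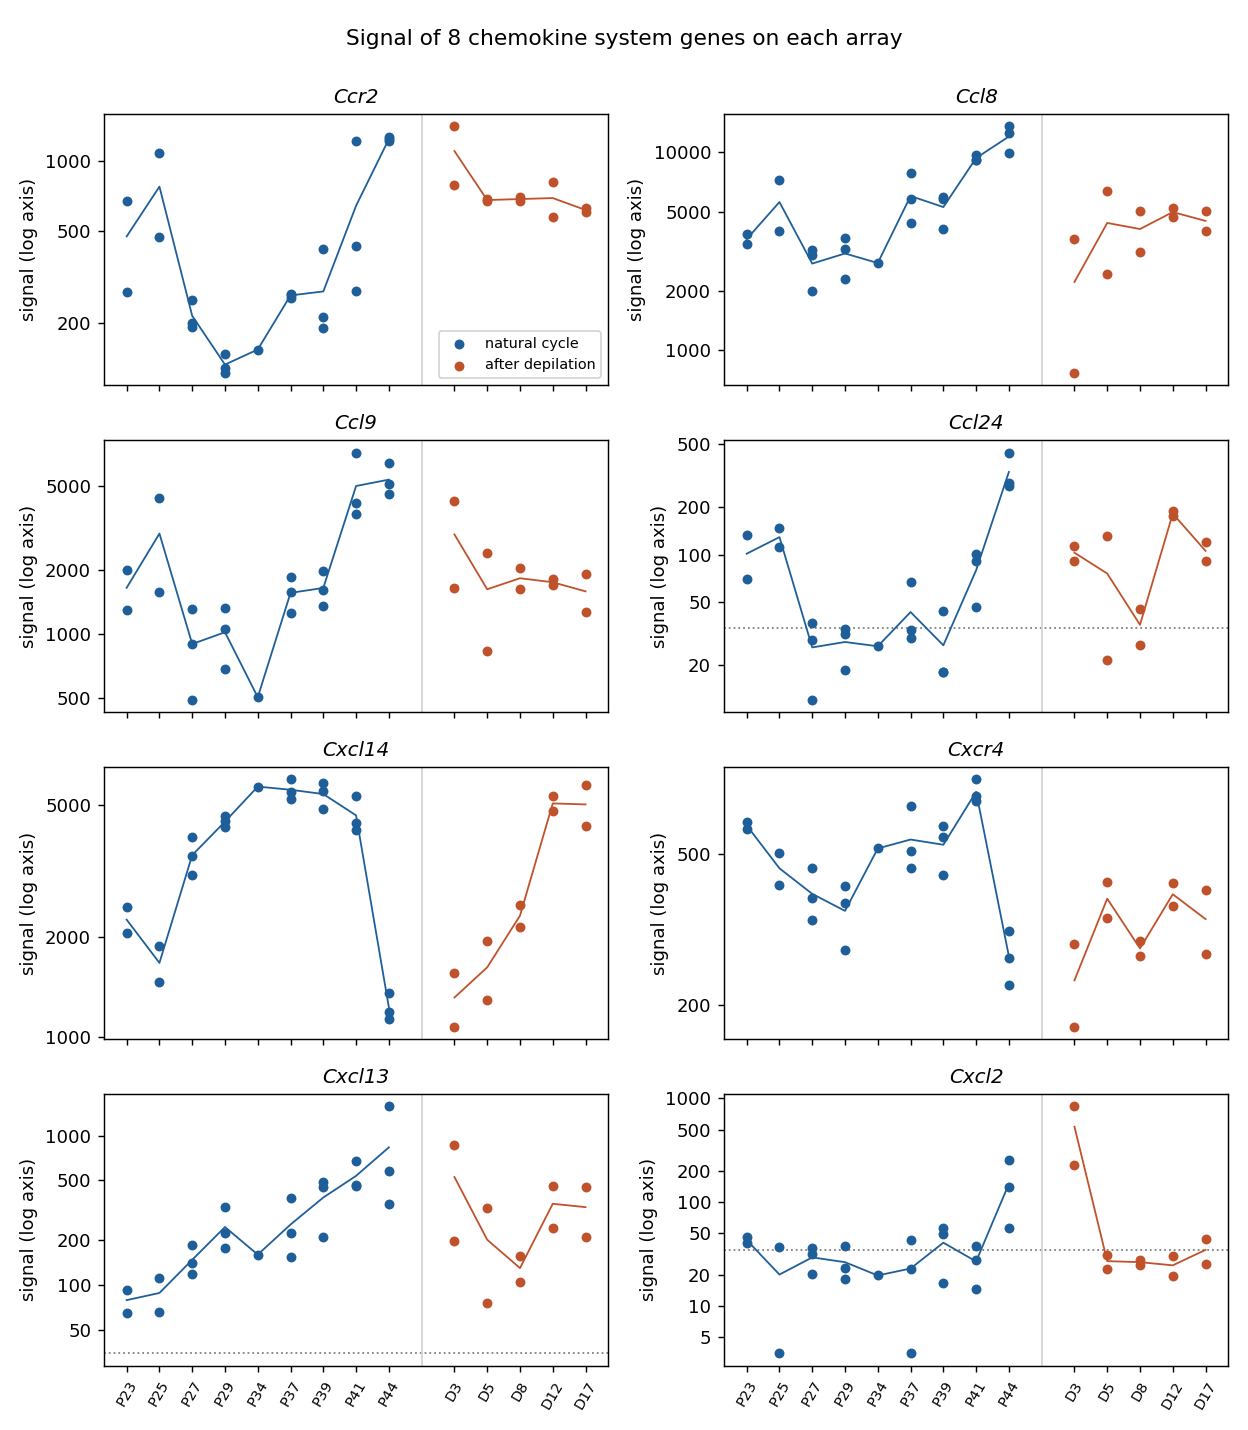
Signal of 8 genes on every array (log axis), by time point, for the natural cycle and after depilation, with 1 point for each array and a line through the mean of each time point. The dotted line in the panels that reach low signals is the floor of 34.6. Ccr2 dips to between 122.5 and 147.7 at P29 but stays between 573.9 and 1413.5 after depilation, and Cxcl2 exceeds 100 only on the 2 arrays of D3 and on 2 telogen arrays.

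The return of these signals in regression was tested between early and mid catagen. Of 27 genes 9 rose and 1 fell (37%), against 35.3% of all probe sets, of which 17.4% were higher and 17.9% lower. The genes that rose were Ccl6, Ccl9, Ccr1, Cxcl16, Ccl24, Ccl8, Ccl27a, Cxcl12 and Cxcr4, and Ccl25 fell. Ccl6 had 9690.2, 4281.9 and 4726.3 in mid catagen and between 1471.6 and 2421.3 in early catagen, with a median of 1957 over 6 arrays. It differed by 1.62 ± 0.26 (adjusted p = 0.0021), Ccl9 by 1.59 ± 0.22 (adjusted p = 0.00115) and Ccl8 by 0.76 ± 0.19 (adjusted p = 0.0137), with no overlap for any of these 3. On second probe sets Cxcl12 (0.49, adjusted p = 0.122) and Ccl25 (-0.46, adjusted p = 0.181) were not called. Mid catagen replicate 1, a female, was the highest array for Ccl6, Ccl9, Ccr1 and Ccr2. Ccr2 had 1219.7, 430 and 275.5 in mid catagen and was not called (adjusted p = 0.0856). Without mid catagen replicate 2 the count was 4 genes, and Ccr1, Cxcr4, Ccl24, Cxcl12, Ccl27a, Cxcl16 and Ccl8 each lost the call without 1 or more single arrays (adjusted p up to 0.147).

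Mid catagen and telogen differed less. In telogen 4 genes were higher and 2 lower than in mid catagen (22.2%), against 5.88% of all probe sets, of which 2% were higher and 3.88% lower. Ccl5 and Ccl24 were higher in telogen by 2.13 ± 0.32 (adjusted p = 0.0174) and 2.11 ± 0.34 (adjusted p = 0.023), Cxcl1 by 1.03 ± 0.13 (adjusted p = 0.0114) and Cxcl10 by 0.84 ± 0.17 (adjusted p = 0.0467), while Cxcl14 and Cxcr4 were lower, as above. Ccl6 differed by 0.06 ± 0.36 (adjusted p = 0.939) and Ccl9 by 0.15 ± 0.28 (adjusted p = 0.784), and neither was called. The second probe set of Cxcl1 was not called (0.49, adjusted p = 0.503). The number called was 10 without mid catagen replicate 1, and 2, Cxcl14 and Cxcr4, without mid catagen replicate 3.

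The first growing phase was set against rest. In early anagen 13 of 27 genes were lower and 2 higher than in telogen (55.6%), against 26.8% of all probe sets, with 13.2% lower and 13.5% higher. The largest called falls were those of Cxcl13 and Ccl5. Ccl5 had 11.7, 54.2, 49.1 and 103.2 in early anagen, with 1 array under the floor, and had a log2 difference of at most -2.53 (adjusted p = 0.00281). Cxcl2 and Ccl24 followed, Cxcl2 with 1 early anagen array under the floor (adjusted p = 0.0326) and Ccl24 at -1.55 ± 0.29 (adjusted p = 0.00931). Ccl8 had 3434.7, 3837, 7199.5 and 3987.2 in early anagen, all below the lowest telogen array (-1.43 ± 0.27, adjusted p = 0.00931). Ccl9, Ccl11, Cxcr3, Cxcl12, Cxcl16, Cx3cl1, Ccl4 and Cxcl1 completed the list, between -1.36 and -0.48. Cxcr4 and Cxcl14 were the 2 higher genes. The calls of Ccl11, Ccl9, Cx3cl1, Cxcl14, Cxcl2, Ccl4 and Cxcl1 were each lost without 4 to 6 of the single arrays (adjusted p up to 0.124). On second probe sets Ccl9 (-1.39, adjusted p = 0.0701), Cxcl1 (-0.25, adjusted p = 0.435), Cxcl12 (-0.37, adjusted p = 0.225) and Cxcl14 were not called.

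Genes of monocyte recruitment varied between early anagen mice. Ccr2 had 673.8, 273.1, 1078.5 and 471.6 in early anagen, and its difference from telogen missed the threshold (-1.17 ± 0.42, adjusted p = 0.0786), while its second probe set was called lower (-0.77, adjusted p = 0.0283). Ccl2 ranged between 61.9 and 336.9 in early anagen and differed by -0.47 ± 0.55 (adjusted p = 0.562). The female at P25 was the highest early anagen array for Ccr2, Ccr1, Ccl6, Ccl7, Ccl8, Ccl9 and Ccl12. With P25 as the only early anagen time point 2 genes were called, and the count without single arrays ran from 8, without P25 replicate 2 or telogen replicate 3, to 16 without P25 replicate 1.

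Between early and mid anagen 2 of 27 genes rose and 3 fell (18.5%), against 19.7% of all probe sets (10.4% higher and 9.27% lower). Ccl24 had 28.9, 12.1 and 36.9 in mid anagen, 2 of them under the floor, and 133.2, 70.2, 147.6 and 111.4 in early anagen, a log2 difference of at most -1.66 (adjusted p = 0.00757). Ccl7 differed by -1.65 ± 0.43 (adjusted p = 0.0364) and Cxcl16 by -0.44 ± 0.12 (adjusted p = 0.0406). Cxcl13 rose by 0.83 ± 0.24 (adjusted p = 0.0496), as did Cxcl14. The second probe sets of Cxcl13 (0.56, adjusted p = 0.0815) and Cxcl16 (-0.62, adjusted p = 0.0505) just missed the threshold. All but Ccl24 were lost without 1 or more single arrays, and 1 gene was called without P23 replicate 1, P27 replicate 1 or P27 replicate 2.

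Many, but not all, markers of the cells known to make these chemokines moved alongside. All 8 macrophage markers (Adgre1, Csf1r, Cd68, Cd163, Mrc1, C1qa, C1qb and Fcgr1) were lower in late anagen than in telogen, and their summed signal ran from 7942 to 10812 in late anagen and from 37799 to 59022 in telogen. Of the Langerhans and dendritic cell markers 4 of 5 were lower, of the measured T cell markers 3 of 4, and of the mast cell markers 4 of 5. No B cell or eosinophil marker exceeded the array median on 3 or more arrays, and 3 of the 9 monocyte and neutrophil markers did. Of these 3, 1 was called lower in late anagen than in telogen and none higher. None of the 3 adipocyte markers was called in that comparison. In mid catagen 6 of 8 macrophage markers were higher than in early catagen, and in early anagen 5 of 8 were lower than in telogen. In late anagen 3 of 5 fibroblast, 4 of 5 keratinocyte, 3 of 4 endothelium and 4 of 4 skeletal muscle markers were lower too, while 4 of 4 hair matrix and shaft and 3 of 3 cell division markers were higher. The part of any cell type in the chemokine results was not tested.

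Chemokine system genes outside the symbol rule behaved likewise in late anagen. Of 8 measured, 6 were lower than in telogen and none was higher at an adjusted p under 0.05. Pf4, a platelet and macrophage chemokine, averaged 1004 in late anagen and 3985 in telogen (-1.99 ± 0.17, adjusted p = 0.000337). Ackr2, a scavenger receptor that clears inflammatory chemokines, averaged 120.3 in late anagen and 567.8 in telogen (-2.24 ± 0.14, adjusted p = 0.000141). Xcl1, Ackr1, Ackr3 and Ackr4 were the other four.

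Skin 3 days after depilation was compared with telogen of the natural cycle (P44, 1 female of 3). No undepilated skin of mice as old as the depilated ones was arrayed, so this is not a before-and-after measurement. Of 27 genes 5 fell and 1 rose (22.2%), against 33.1% of all probe sets, with 19.7% lower and 13.4% higher. Cxcl2 rose, with 838.4 and 227.8 at D3 and 56.2, 140.2 and 254.3 in telogen. It had passed the limit on low signals only through both D3 arrays and telogen replicate 3. The groups overlapped, the fitted difference was 1.79 ± 0.43 (adjusted p = 0.00274), and without D3 replicate 1 the adjusted p was 0.192. Ccl8 fell in both mice, to 767.4 and 3653.1 at D3 against 12482.2, 13547.9 and 9887.7 in telogen (-2.83 ± 0.46, adjusted p = 0.000104). Cxcl12 was at 1326.9 and 2560.2 at D3 and above 5662 on all telogen arrays (-1.66 ± 0.27, adjusted p = 0.000124), but its second probe set missed the threshold (-0.60, adjusted p = 0.102). Ccl5 (with 1 D3 array under the floor), Ccl24 and Cxcr3 fell as well, and each of these 3 lost its call without D3 replicate 1 (adjusted p = 0.122, 0.0523 and 0.124), when only Ccl8 and Cxcl12 were left.

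Ccr2 and its ligand Ccl2 showed no such fall at D3. Ccr2 had 790.4 and 1413.5 at D3 and 1215.3 to 1270.7 in telogen (-0.23 ± 0.46, adjusted p = 0.736), and Ccl2 had 99.8 and 302.8 at D3 and 174.4 to 276.1 in telogen (-0.42 ± 0.66, adjusted p = 0.667). The second probe set of Ccr2 was lower at D3 by 0.83 on the log2 scale (adjusted p = 0.0265). Ccl9 had 1642.3 and 4248.4 at D3 and 4559.7 to 6362.1 in telogen and was not called (adjusted p = 0.12), nor was Ccl6 (-0.84 ± 0.52, adjusted p = 0.23), but the second probe set of Ccl9 was called lower (-2.02, adjusted p = 0.0108). Macrophage markers were lower at D3 for 6 of 8, with a summed signal of 10470 and 28734 at D3 and 37799 to 59022 in telogen. All 5 fibroblast and all 5 mast cell markers were lower. Their part in these results was not tested.

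Against natural early anagen, the phase it was matched to, D3 skin had 3 genes higher and 3 lower (22.2%), against 44.6% of all probe sets, with 18.5% higher and 26.1% lower. Cxcl2 was at 838.4 and 227.8 at D3 and at 45.9, 40.5, 3.5 and 36.7 in early anagen. The groups were well apart, the log2 difference was at least 3.48 since 1 early anagen array was under the floor (adjusted p = 9.72e-07), and the call held without either D3 array. Both D3 arrays were needed for Cxcl2 to pass the limit on low signals, and the fits without an array kept that choice. Cxcl13 had 195.7 and 858.4 at D3, both above the highest early anagen array of 110 (2.33 ± 0.62, adjusted p = 0.00435), and Cxcl16 had 465.2 and 862.3 at D3 and 287.8 to 355.4 in early anagen (0.97 ± 0.32, adjusted p = 0.0184). Both calls were lost without D3 replicate 2 (adjusted p = 0.184 and 0.316). The second probe set of Cxcl13 gave 1.01 and was not called (adjusted p = 0.054), and that of Cxcl16 was called (1.41, adjusted p = 0.00598). Cxcr4 fell to 175.8 and 289.3 at D3, against 579.7, 607.7, 414.5 and 501.3 in early anagen (-1.21 ± 0.21, adjusted p = 0.000114). Ccl8 (-1.40 ± 0.43, adjusted p = 0.0121) and Cxcl14 (-0.58 ± 0.18, adjusted p = 0.0111) were lower too but overlapped between the groups, and lost their calls without D3 replicate 1 (adjusted p = 0.672) and D3 replicate 2 (adjusted p = 0.265). Among the females alone 1 gene was called, Cxcl2, but its natural arm was a single array at P25 that is assumed to vary like the time points with 2 females.

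A set of NF-kB feedback and other inflammatory genes, induced by the same inflammatory signals as many chemokines, was read beside this. Of the 6 measured, 4 were higher at D3 than in early anagen, Ptgs2 (3.10 ± 0.37, adjusted p = 1.29e-06), Il1b (1.69 ± 0.40, adjusted p = 0.0017), Nfkbia (1.11 ± 0.13, adjusted p = 1.19e-06) and Tnfaip3 (0.70 ± 0.26, adjusted p = 0.0341), and Icam1 was lower (-0.67 ± 0.20, adjusted p = 0.00924). Among the other chemokine system genes Ackr2 and Ackr4 were higher, Ackr1 and Dpp4, a protease that trims chemokines, lower. No macrophage marker of 8 was called in this comparison, while all 5 fibroblast, all 5 mast cell and all 4 hair matrix and shaft markers were lower at D3, and their part was not tested.

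Some genes that missed the limit on low signals were called at D3 as well, against early anagen, where 44.6% of the kept probe sets were called. The share called over every probe set was not counted, here or in other tests without that limit. With all 45037 probe sets tested, Ccl3, a macrophage ligand of Ccr1, had 121.9 and 101.2 at D3 and between 4.2 and 10.6 in early anagen. That is at least 1.68 on the log2 scale, since all early anagen arrays were under the floor. Cxcl3, the neighbour of Cxcl2 shown above, had 69.4 and 60.7 at D3 and 10.6 to 37.1 in early anagen, where 3 arrays were under the floor (at least 0.88). Ccl3 was under the floor on 28 and Cxcl3 on 29 of the 33 arrays, so most of their spread was removed by the floor and no p is given. Cxcl15 had 490.7 and 74.9 at D3 and at most 34 in early anagen, where all arrays were under the floor. Its log2 difference was at least 2.47 (adjusted p = 0.00391, with no spread left in early anagen). Of the receptors, Cx3cr1 had 127.9 and 135.5 at D3 and 32.9 to 63.4 in early anagen (1.54 ± 0.46, adjusted p = 0.016). Ccr9 had 88.5 and 159.2 at D3 and 30.3 to 65.2 in early anagen (adjusted p = 0.00563), and Ccr6 had 129.6 and 74.2 at D3 and 40 to 67.8 in early anagen (adjusted p = 0.0362). Against telogen Ccl3, Cxcl3 and Cx3cr1 (1.39 ± 0.49, adjusted p = 0.0478) were called higher. These genes were at or below the array median on nearly all arrays, which limits what their signals can show.

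At D5, 2 of 27 genes were higher and 2 lower than in mid anagen (14.8%), against 23.6% of all probe sets, with 9.18% higher and 14.5% lower. Ccr2 had 686.6 and 670.4 at D5 and 252.4, 201.4 and 193.5 in mid anagen (1.66 ± 0.46, adjusted p = 0.0114). Cxcl16 was higher (1.04 ± 0.34, adjusted p = 0.03), with 317.7 and 754.2 at D5 and 221 to 248.3 in mid anagen, and was lost without D5 replicate 2 (adjusted p = 0.48) or any mid anagen array. Cxcl14 was at 1290.9 and 1946.1 at D5 and at 4006.7, 3510.7 and 3072.8 in mid anagen (-1.15 ± 0.19, adjusted p = 0.000246), and Ccl28 was lower by a log2 difference of -0.56 ± 0.20 (adjusted p = 0.0474). Cxcl2 was back under the floor on both D5 arrays. The Ccr2 call was lost without D5 replicate 1 (adjusted p = 0.0896), and that of Ccl28 without any array of the comparison. The second probe sets of Ccr2 (0.76, adjusted p = 0.054) and Cxcl14 (-0.42, adjusted p = 0.203) were not called, while that of Cxcl16 was (1.42, adjusted p = 0.0162). D5 replicate 2 stood apart for S100a8, at 10649, and S100a9, at 8058, against 167.7 and 56.1 on D5 replicate 1. Csf3r, the other measured marker of monocytes and neutrophils, did not stand apart. It was at 136.4 on D5 replicate 2, 70.3 on D5 replicate 1 and 139.1 to 240.8 in telogen. The part of these markers in the D5 results was not tested.

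At D8 and D12, 2 of 27 genes were higher than in late anagen and none lower (7.41%), against 26.5% of all probe sets, with 10.6% higher and 15.9% lower. At an unadjusted threshold of 0.05, limma passed 8 of the 27 genes, against 10289 of the 26988 probe sets. The count of called genes was 7 when only the arrays compared were fitted, 6 with the P34 array added and 5 after quantile normalization. Ccr2 had 670, 700.5, 810.1 and 573.9 at D8 and D12 and 122.5, 147.7 and 129.3 in late anagen. Every depilated mouse was above every natural one by a wide margin, with a difference of 2.36 ± 0.38 (adjusted p = 0.000127). It was called in each fit without a single array, among the females alone, and on its second probe set, though with a smaller difference there (1.03, adjusted p = 0.0026). Ccl24 had 45.2 and 27 at D8 and 176.1 and 188.7 at D12 and was under the floor on all late anagen arrays, so that its rise of 1.30 (adjusted p = 0.00772) rested on D12. Ccr1, Ccl6, Ccl9, Ccl2, Ccl11 and Cxcl16 were not called (adjusted p between 0.0759 and 0.208). The second probe sets of Cxcl16 (1.45, adjusted p = 0.0038) and Cxcl1 (1.07, adjusted p = 0.0198) were called higher. Of the macrophage markers 1 of 8 was called higher and of the Langerhans and dendritic cell markers 3 of 5, with summed macrophage signals of 13525 to 17587 at D8 and D12 and 7942 to 10812 in late anagen. Their part was not tested.

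At D17, 2 of 27 genes were higher and 1 lower than in early catagen (11.1%), against 15.3% of all probe sets, with 5.5% higher and 9.82% lower. Ccr2 had 628.3 and 601.8 at D17 and 190.7 to 419.8 in early catagen, with a median of 261.7 over 6 arrays (1.24 ± 0.41, adjusted p = 0.0433), but its second probe set was not called (0.47, adjusted p = 0.231). Ccl24 had 120.5 and 91.4 at D17 and 18.1 to 67.2 in early catagen, where 4 of 6 arrays were under the floor (at least 1.38, adjusted p = 0.013). Cxcr4 was lower, with 401.2 and 272.5 at D17 and 439.6 to 666.3 in early catagen (-0.68 ± 0.20, adjusted p = 0.0244). Without D17 replicate 2 limma called none of the 27 genes (adjusted p = 0.415 for Cxcr4), and 5 passed an unadjusted threshold of 0.05. Without D17 replicate 1 only Cxcr4 was called, and the Ccr2 call was also lost without any P37 array, P39 replicate 2 or P39 replicate 3 (adjusted p up to 0.23).

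**Figure D4:**
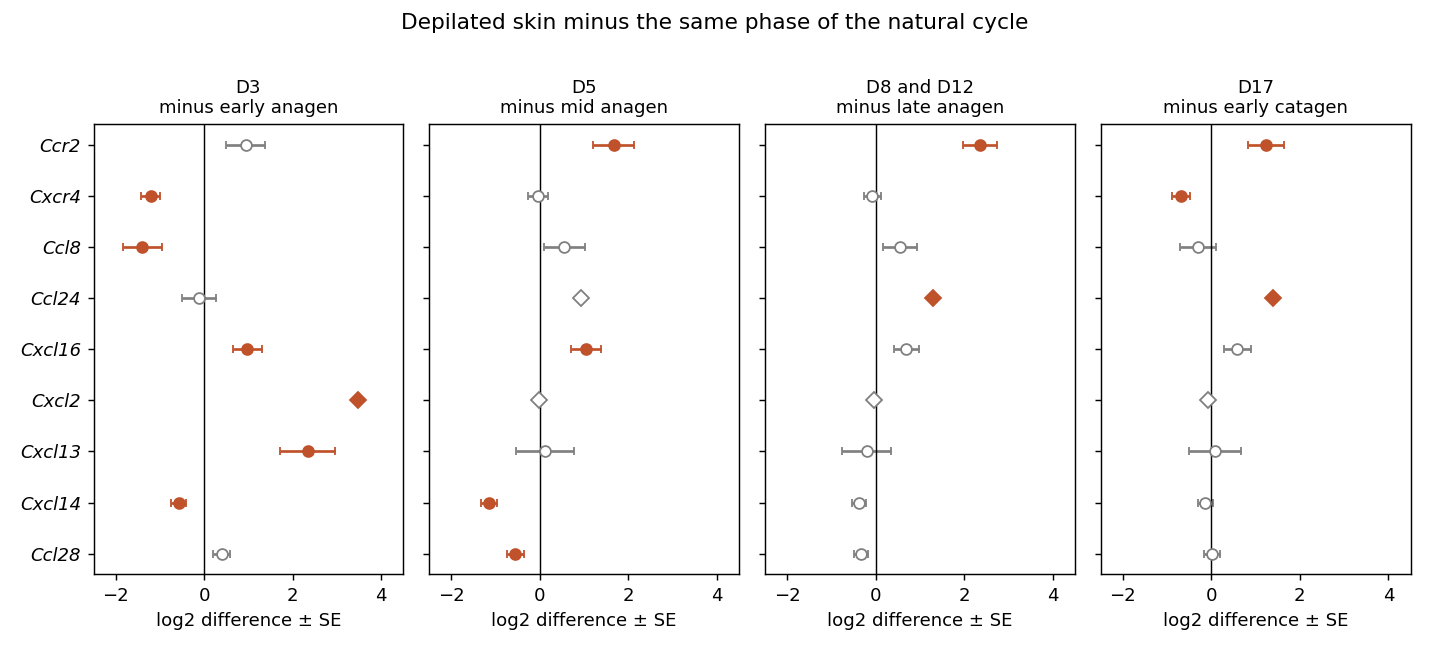
Log2 difference of depilated skin minus the matched natural phase for the 9 genes called in at least 1 of the 4 comparisons, with bars of 1 SE. Filled symbols passed an adjusted p of 0.05, and diamonds mark genes with arrays under the floor in either group. Cxcl2 lies at 3.48 at D3 and near 0 afterwards, while Ccr2 is at 1.66, 2.36 and 1.24 in the later 3 panels.

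Within the depilation cycle 5 of the 27 genes were under an unadjusted p of 0.05 (limma F test over 10 arrays), against 8244 of the 26988 probe sets. After adjustment 2 of the 27 changed over the 5 time points (7.41%), against 10.2% of all probe sets. They were Cxcl14 (adjusted p = 0.0122), which had 1552.4 and 1072.2 at D3, 1290.9 and 1946.1 at D5, 2145.3 and 2490.4 at D8, 4790.9 and 5323 at D12 and 5730.3 and 4312.6 at D17, and Cxcl2 (adjusted p = 0.0142). All D5, D8 and D12 arrays of Cxcl2 were under the floor, which removed their spread from its test. Both D3 arrays, with telogen replicate 3, had brought Cxcl2 past the limit on low signals. Cxcl14 thus climbed with growth after depilation as it did in the natural cycle. Ccr2 was not called (adjusted p = 0.295), and its 10 depilation arrays ran from 573.9 to 1413.5.

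Whether the change with growth differed between the cycles was tested directly, as the change between D3 and D8 with D12 minus that between early and late anagen. Of 27 genes 2 were higher and 3 lower (18.5%), against 18.2% of all probe sets, with 10.6% higher and 7.66% lower. Cxcl2 had a change of -3.66 after depilation, where all D8 and D12 arrays were under the floor, and of -0.14 in the natural cycle, a log2 difference of changes of -3.52 ± 0.54 (adjusted p = 0.000175). Cxcl13 had 195.7 and 858.4 at D3 and 103.6 to 458 at D8 and D12, against 65 to 110 in early anagen and 175.4 to 331.6 in late anagen, and its changes differed by the same measure (-2.53 ± 0.83, adjusted p = 0.0376). The second probe set of Cxcl13 was not called (-1.14, adjusted p = 0.158), whereas that of Ccr2 was (1.09, adjusted p = 0.0363), unlike its first (1.43, adjusted p = 0.0868). Ccl8 and Cxcr4 ran the other way. Ccl8 changed by 1.41 ± 0.43 after depilation and by -0.55 ± 0.38 in the natural cycle (1.96 ± 0.58, adjusted p = 0.0234), and Cxcr4 changed by 0.56 ± 0.21 after depilation and by -0.57 ± 0.19 in the natural cycle (1.13 ± 0.29, adjusted p = 0.00942). Ccl28 was called at an adjusted p of 0.0495 (-0.72 ± 0.25). Without D3 replicate 1 the calls of Ccl8 (adjusted p = 0.341) and Cxcr4 (adjusted p = 0.129) were lost, and without D3 replicate 2 that of Cxcl13 (adjusted p = 0.26). Ccl8 was also lost without late anagen replicate 3 or D8 replicate 1, Cxcl13 without 6 other arrays and Ccl28 without 11, so only the Cxcl2 call held without every single array. These fits kept the probe sets chosen on all arrays, and Cxcl2 was chosen only through both D3 arrays and telogen replicate 3.

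Since all depilated mice were female, sex was read in the natural cycle alone, where females and males were compared at equal time points, a comparison chosen after the data were seen. Of the 27 genes 1 was called, against 0.5% of all probe sets tested (limma, Benjamini-Hochberg). Ccl11, an eotaxin, was higher in females by 1.05 ± 0.19 on the log2 scale (adjusted p = 0.0206), with a mean signal of 374.2 over 10 females and 243.2 over 13 males. Cxcr3 (0.47 ± 0.12, adjusted p = 0.0993), Cxcl12 (0.35 ± 0.09, adjusted p = 0.146), Ccl6 (0.71 ± 0.19, adjusted p = 0.155) and Ccl9 (0.61 ± 0.17, adjusted p = 0.177) were next in order of p and were not called.

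The remaining 20 genes did not exceed the array median on 3 or more arrays, and they were under the floor on between 0 arrays (Ccr6) and 33 arrays (Ccr8). Among them were 10 receptors, Ccr3, Ccr4, Ccr6, Ccr7, Ccr8, Ccr9, Ccr10, Cx3cr1, Cxcr2 and Cxcr5, and 10 ligands, Ccl1, Ccl3, Ccl17, Ccl20, Ccl22, Cxcl3, Cxcl5, Cxcl11, Cxcl15 and Cxcl17. Ccl20, Ccl22 and Ccr6 were just outside the limit, above the median on 2 arrays. Cxcl2 was just inside, on 3, namely both D3 arrays and telogen replicate 3. Ccr7, the receptor that guides dendritic cells to lymph nodes, was under the floor on 32 arrays and Ccr8 on all 33. The D5 replicate 2 array held the highest signals of Ccl20 (382.4), Ccl22 (250.2), Ccl17 (104.5), Ccl1 (95.4) and Cxcr2 (134.9), and is the array with the high S100a8 and S100a9 signals given above. Ccl1 (adjusted p = 0.0479) and Ccl17 (adjusted p = 0.0454) were called higher at D5 than in mid anagen with no limit on low signals, and Ccl17 lower at D17 than in early catagen (adjusted p = 0.0325). With no limit on low signals Ccl17 (31.9 in late anagen and 85.6 in telogen, adjusted p = 0.0139) and Ccl22 (18.2 in late anagen and 79.8 in telogen, adjusted p = 0.0299), the macrophage and dendritic cell ligands of Ccr4, fell in late anagen. Probe sets annotated with several gene symbols, those of the Ccl19, Ccl21 and Ccl27 families, were left out by the rule. A probe set with a single symbol may still bind several transcripts, as those used for Ccl27a and Cxcl1 may.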

How the data were processed

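Signals of 45037 probe sets on 33 arrays were taken from the deposited table. Its values are linear signal intensity values that the authors computed with MAS5 (named in the submitters' processing notes), with trimmed means of 496.8 to 498.4, from 1 mouse for each array. Lower values were raised to 34.6 before the log2 was taken, and 26988 probe sets above the array median on 3 or more arrays were kept. Symbols came from GEO's platform annotation. Phases were compared with limma 3.58.1 in R 4.3.3 (lmFit, eBayes). Natural phases were fitted on the arrays compared, and comparisons with depilated skin on all 33 arrays with 1 mean for each time point. Every gene of the symbol rule is accounted for, and those past the test are named. The members, marker lists, motifs and comparisons were chosen with earlier results of these data known. Replicate numbers did not pair the mice (median r of deviations 0.0039 for the same number and -0.0027 for different numbers). On simulated data with 200 changed genes of 26988, the comparison of late anagen with telogen recovered 83.5% of 4-fold changes and 0% of 2-fold changes. In the real comparison 44.6% of probe sets were called, which makes the adjusted threshold less strict than in the simulation. Changes under 2-fold, such as that of Cxcl12 (-0.81), were called there. The simulated shares thus do not give the recovery of the real comparison. Precision is limited by the number of arrays. Alternatives included another floor, filter, normalization, probe set, sex as a covariate and each array left out. Figures were drawn with matplotlib from the same values.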

Additional observations from a re-analysis of the deposited data

Results flagged for a closer look

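Of 80 sets of 4 to 10 arrays of a phase tested for a single array far from the rest, 4 had one, and chance alone gives about 1 in 20. Ccl12 was at 19.9 on P39 replicate 1 and between 113 and 215.8 on the other early catagen arrays. Ccl24 was at 67.2 on P37 replicate 1 and between 18.1 and 44.1 on the others. Ccl4 was at 21.7 on P39 replicate 2 and between 92.7 and 145.5 on the others. Cxcr6 was at 128.8 on D12 replicate 2 and between 71.8 and 76.8 on the other D8 and D12 arrays.

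The change with growth differed between the depilation and natural cycles, by the limma test of that difference, for 5 genes, with log2 values of -3.52 for Cxcl2, -2.53 for Cxcl13, 1.96 for Ccl8, 1.13 for Cxcr4 and -0.72 for Ccl28. Of these only Cxcl2 was called in each fit without a single array. It had passed the limit on low signals only through both D3 arrays and telogen replicate 3.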

How the results depend on the processing

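No result reversed in any alternative run. The counts below are of the 27 genes unless said otherwise. Without single arrays, the number called ran from 8 to 16 for early anagen against telogen, 1 to 6 for mid against early anagen, 17 to 18 for late anagen against telogen, 4 to 10 for mid against early catagen, 2 to 10 for telogen against mid catagen, 2 to 7 for D3 against telogen, 5 to 8 for D3 against early anagen, 2 to 4 for D5, 2 to 3 for D8 and D12, 0 to 4 for D17, 2 to 5 for the difference in growth change, 21 to 24 over the natural phases and 2 to 4 over the depilation time points.

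Early anagen against telogen gave 15 genes, but 2 with P25 as its only time point, and 8 with no filter on low values, with the methods' t-test at their threshold and with that test after Benjamini-Hochberg adjustment. Mid against early anagen gave 5, but 2 with P23 alone, P25 alone, no filter or the methods' t-test after adjustment, 3 with that test at their threshold, with the floor at the 40th percentile or with the stricter filter, and 11 with sex as a covariate. Late anagen against telogen gave 19, and 12 with the stricter filter, under which 16 genes were tested. Mid against early catagen gave 10, but 5 with no filter, and 5 and 6 with the methods' t-test before and after adjustment. Telogen against mid catagen gave 6, but 3 with no filter, the adjusted t-test or the replicate block. D3 against telogen gave 6, and 10 with sex as a covariate. D3 against early anagen gave 6, but 12 of 47 with no filter and 1 in females alone. D5 gave 4, but 1 from the arrays compared alone and 0 in females alone (limma, 2 at an unadjusted threshold of 0.05), where the 1 natural array is assumed to vary like the time points with 2 females, so that this 0 says little of stability. D8 and D12 gave 2, but 6 with P34 added, 7 from the arrays compared alone, 5 after quantile normalization, 1 with the stricter filter and 1 in females alone. D17 gave 3, and 0 in females alone (limma, 5 at that unadjusted threshold). The difference in growth change gave 5, but 2 with P23 alone or in females alone and 3 with P25 alone or the stricter filter. Over the natural phases 23 became 14 with the stricter filter, and over the depilation time points 2 became 6 in the fit of all arrays and 1 with the stricter filter. The causes were not tested, except that the stricter filter tests fewer genes.

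The replicate numbers did not pair the samples, and the replicate block, where it could be fitted, changed no other count by over 1.5 times. Females alone and the second probe set were alternatives chosen after seeing the data. For the 10 genes with a second kept probe set, 17 calls held on it and 18 were lost, by Cxcl12, Cxcl14, Cxcl13, Ccl25, Cxcl1, Ccr2, Ccl9 and Cxcl16. Cxcl12 and Ccl25 lost all of their calls. Signals over background limit the lowest genes.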
